A study of Mus musculus with 32 samples.

Results

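The comparison set the outer hair cell pull-down of the mouse cochlea against the supporting cell pull-down, each read against the whole cochlea it was drawn from. It used all 32 libraries of the series, from 16 cochlear homogenates, of which 9 came from the Prestin strain and 7 from the Sox2 strain. The mice were 10 weeks old and were bred as PrestinCreERT2;RiboTag;CBA or Sox2CreERT2;RiboTag;CBA, with the genotypes PrestinCre/+;RiboTagHA/+ and Sox2Cre/+;RiboTagHA/+ in the labels. All mice thus carried the RiboTag allele, and none was free of Cre. Mice of both strains were left without noise or were exposed to noise of 105 dB SPL for 2 h, and cochleae were taken 6 h or 24 h later. The Prestin strain had 3 homogenates per condition, and the Sox2 strain had 2 without noise, 2 at 6 h and 3 at 24 h. Each homogenate gave an input library (total RNA of the whole cochlea) and an IP library (RNA recovered with an antibody to the HA tag).

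RiboTag adds an HA tag to Rpl22, a protein of the large ribosomal subunit, in cells that have expressed Cre, so that ribosomes and the mRNA on them can be recovered from one cell type of a mixed tissue. Prestin, encoded by Slc26a5, is the motor protein with which outer hair cells amplify sound. Supporting cells surround the hair cells, hold them in place and produce much of the matrix that overlies them. Sox2 is a transcription factor of supporting cells, and glial cells of the cochlear nerve express it too. Tamoxifen, cell numbers and the pooling of animals are not stated in the labels. Because the tissue is read in bulk, fewer cells of a type and less RNA per cell cannot be told apart.

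Enrichment was taken per homogenate as log2(TPM + 1) of the IP minus that of its own input, and the difference in enrichment is the Prestin mean minus the Sox2 mean. A positive difference means that a gene was more enriched, or less depleted, in the Prestin pull-down than in the Sox2 pull-down. Of 39399 genes listed for both strains, 22746 were above 0 in at least 1 library of each strain, and 16309 of these reached 1 TPM in at least 7 of the 32 libraries and were tested. Two-sided p-values came from limma with Benjamini-Hochberg adjustment over the 16309 genes, with a threshold of 0.05. The tests measure the spread between the homogenates. The Sox2 files listed 43947 genes, and the 39399 shared ones held 97.15% to 97.81% of the TPM of Sox2 libraries. Whether both strains were quantified against the same annotation, with the same rule for reads that fit several genes, is not given in the sources used here. With the TPM rescaled to the shared genes, all 102 called genes named here kept their call. A difference in annotation or in the handling of such reads cannot be told apart from a strain difference in the inputs.

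Some libraries stood apart before any comparison was made. TPM values keep no depth, so the read depth is unknown. The 4 Sox2 libraries at 6 h listed 15929 to 16966 genes above 0, fewer than all other libraries, which listed 17395 to 21239. The IP of Prestin control homogenate 1 had the lowest correlations with its replicates across genes (r = 0.842 and 0.849). It also held the highest level of Malat1, a nuclear noncoding RNA, at 73023 TPM. The input of Prestin 6 h homogenate 2 held the astrocyte gene Mlc1 at 20.7 TPM, against 0.556 to 4.05 TPM in the other Prestin inputs. Acsbg1 (7.71 TPM), Itih3 (6.84 TPM), Aqp4 (21.9 TPM), Gja1 (24.3 TPM) and Olig1 (31.5 TPM) were also highest there among the Prestin inputs. The Sox2 inputs were uneven too, at 0.718 to 8.17 TPM for Mlc1, 0.033 to 8.63 for Itih3 and 0.232 to 52.1 for Olig1. The highest of these values were all in Sox2 control homogenate 4. The source of the RNA of these genes was not tested in either strain. Of all genes listed for both strains, 2563 were at 0 in every Sox2 library but not in every Prestin library, and 1017 the other way round. Of these, 194 and 69 averaged 5 TPM or more in the strain that listed them. These genes were left out, since a gene listed at 0 in all libraries of one strain may be a failed estimate.

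The pull-downs were told apart by the markers of their cells. Ocm, which encodes oncomodulin, a calcium buffer typical of outer hair cells (ENSMUSG00000029618, chromosome 5 of GRCm38, 144019804 to 144026670), stood at 381 to 1810 TPM in the 9 Prestin IPs, with a median of 599 TPM. In the inputs of the same homogenates it lay between 49.1 and 78.7 TPM, with a median of 62.0 TPM. In the 7 Sox2 IPs it lay between 48.8 and 104 TPM with a median of 56.2 TPM, against 39.3 to 64.8 TPM in their inputs. Every Prestin IP thus exceeded every other library, and the Sox2 IPs overlapped their inputs. The enrichment of Ocm was 3.42 ± 0.80 (SD, n = 9) in the Prestin strain and 0.29 ± 0.43 (SD, n = 7) in the Sox2 strain. The difference in enrichment was 3.13 ± 0.32 (SE, limma adjusted p = 1.59e-05).

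Sox2 (ENSMUSG00000074637, chromosome 3, 34650405 to 34652461) gave the opposite picture. It stood at 259 to 654 TPM in the Sox2 IPs, with a median of 320 TPM, against 32.5 to 63.7 TPM in their inputs. In the Prestin IPs it lay between 49.9 and 112 TPM, against 45.8 to 85.3 TPM in their inputs. Every Sox2 IP exceeded every other library, and the Prestin IPs overlapped their inputs. The enrichments were 3.21 ± 0.27 (SD, n = 7) and 0.53 ± 0.27 (SD, n = 9), and the difference was -2.68 ± 0.14 (SE, limma adjusted p = 2.27e-08). The inputs themselves differed for this gene, by 0.61 toward the Prestin strain (limma adjusted p = 0.00624), and the IPs alone differed by -2.07.

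Foxd3, a transcription factor of the neural crest and of satellite glia (ENSMUSG00000067261, chromosome 4, 99656299 to 99658622), also went with the Sox2 pull-down. It rose from 3.02 to 9.21 TPM in the Sox2 inputs to 34.2 to 168 TPM in the Sox2 IPs. In the Prestin strain it was at 3.91 to 11.9 TPM in inputs and 4.83 to 13.8 TPM in IPs, so that these groups overlapped. The difference in enrichment was -3.32 ± 0.36 (SE, limma adjusted p = 2.8e-05). Slc26a5 itself (chromosome 5, 21810655 to 21865604) reached 6.26 to 25.4 TPM in the Prestin IPs and 0.533 to 3.33 TPM in the Sox2 IPs, with a difference of 2.65 ± 0.29 (SE, limma adjusted p = 2.48e-05). For Ocm, Sox2, Foxd3 and Slc26a5 the 9 and 7 enrichment values did not overlap, as for 4.41% of all genes tested.

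**Figure D1:**
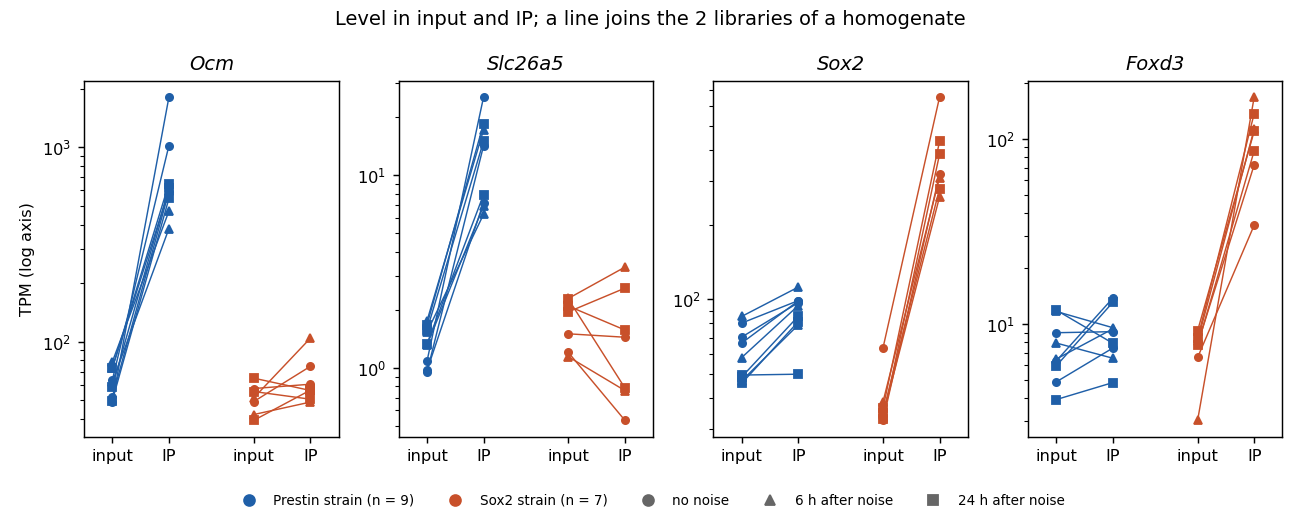
TPM (log axis) of Ocm, Slc26a5, Sox2 and Foxd3 in the input and the IP of each homogenate, with a line joining the libraries of a homogenate, blue for the 9 Prestin and orange for the 7 Sox2 homogenates. Ocm climbs in every blue pair to 381 TPM or more, whereas Sox2 and Foxd3 climb in every orange pair, to 259 TPM and 34.2 TPM or more.

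Over all 16309 genes tested, 3555 (21.8%) passed the threshold. Of these, 2183 (13.4% of all tested) were more enriched or less depleted in the Prestin pull-down, and 1372 (8.41%) in the Sox2 pull-down. On the TPM scale 2114 of the 2183 were called above their Prestin input and 9 below it. Of the 1372, 965 were called above their Sox2 input and 68 below it. For 719 genes (4.41%) the values of the 9 Prestin and 7 Sox2 homogenates did not overlap. The median gene differed by 0.19. With median-of-ratios scaling, which moved that median to 0.08, the calls split into 1094 toward Prestin and 1720 toward Sox2, so the balance of the sides depends on the scaling. Without Prestin control homogenate 1 there were 3194 and 1596 calls, and without both Sox2 homogenates at 6 h there were 1923 and 1267. In the TPM as deposited the median gene lay above its input, by 0.84 in the Prestin strain and 0.68 in the Sox2 strain. The Prestin IPs were higher than input for 11245 genes (68.9%) and lower for 1224 (7.51%), and the Sox2 IPs for 10605 (65.0%) and 560 (3.43%). With median-of-ratios scaling the counts were 5556 and 4994 in the Prestin strain and 3808 and 4018 in the Sox2 strain, so whether most genes lay above input depends on the scaling. Enrichments of single genes are given on the TPM scale. The genes called on either side also differed in kind: those toward Prestin had a median exonic length of 5457 bases and a median level of 9.84 TPM, and those toward Sox2 had 2966 bases and 37.3 TPM. The medians of all genes tested were 3610 bases and 10.0 TPM, and the part of length and level in the calls was not tested.

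The genes of outer hair cells were all more enriched in the Prestin pull-down. All 10 outer hair cell markers passed toward Prestin, where 13.4% of all genes did, and their median difference was 1.72. Beside Ocm and Slc26a5 the largest was Strc, which encodes stereocilin, the protein that ties the tallest stereocilia to each other and to the tectorial membrane. It stood at 21.8 to 81.5 TPM in the Prestin IPs and 1.34 to 6.56 TPM in the Sox2 IPs, and differed by 2.89 ± 0.40 (SE, limma adjusted p = 0.000193). One Sox2 homogenate at 6 h reached an enrichment of 2.32 for Strc, inside the Prestin range of 2.26 to 4.41, so the groups overlapped there. Chrna9 and Chrna10 encode the subunits of the acetylcholine receptor through which the brain inhibits outer hair cells. Chrna10 lay between 40.3 and 161 TPM in the Prestin IPs and between 3.79 and 40.2 TPM in the Sox2 IPs, and differed by 2.40 ± 0.37 (SE, limma adjusted p = 0.00044). Chrna9 was lower in level, at 2.52 to 17.7 TPM against 0.00821 to 1.12 TPM, and differed by 2.35 ± 0.27 (SE, limma adjusted p = 3.91e-05). For both subunits the enrichment values did not overlap. Chrna9 lay at 0.308 to 0.953 TPM in the Sox2 inputs, so in that strain it was near or under the 1 added to each TPM. Its difference and lack of overlap are therefore uncertain. The SK2 potassium channel Kcnn2, which opens on the calcium that this receptor admits, differed by 0.51. The transcriptional regulators Lbh and Ikzf2 differed by 0.80 and 0.66, and the calcium pump Atp2b2 by 0.56. The call of Atp2b2 was lost in a fit that did not pair IPs with their inputs and that also took condition into account.

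Sequence before the start sites of the receptor pair is shown because both subunits were called toward Prestin. In the Sox2 homogenates the enrichment of Chrna10 lay between -0.92 and 1.68, and that of Chrna9 between -0.56 and 0.55. Whether the 2 genes share a control was not tested. RefSeq promoter sequence of GRCm38.p6 was searched on both strands for the E-box hexamers CAGCTG and CAGGTG, in the 250 bases before the start that RefSeq gives. For Chrna9 that start is the first base of 1 GENCODE transcript, and the most upstream GENCODE transcript of the gene starts 32203 bases earlier. For Ocm the RefSeq start lies 23939 bases upstream of every GENCODE transcript of the gene, so its window is not the promoter of the gene span given above. Of 32851 mouse promoters in that table, 13.0% hold CAGCTG, 17.2% hold CAGGTG and 27.7% hold either. Of 8 genes looked at after their values were seen, Strc, Chrna10, Chrna9 and Lhfpl5 hold at least 1 and Ocm, Slc26a5, Sox2 and Foxd3 hold none in these windows. Capitals mark the hexamers on either strand. The Chrna9 window spans chr5:65966874-65967123 on the plus strand, and the Chrna10 stretch, the 135 bases farthest from the start, spans chr7:102116829-102116963 on the minus strand. The Chrna10 stretch stops where the most upstream GENCODE transcript of the gene starts, 115 bases before the RefSeq start. A match describes the letters and not the binding of a factor.
Chrna9: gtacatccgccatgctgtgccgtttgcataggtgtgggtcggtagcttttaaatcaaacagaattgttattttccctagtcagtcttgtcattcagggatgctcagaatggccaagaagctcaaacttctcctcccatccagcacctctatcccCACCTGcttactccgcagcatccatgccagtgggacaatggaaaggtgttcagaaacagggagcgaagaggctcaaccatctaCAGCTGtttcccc
Chrna10: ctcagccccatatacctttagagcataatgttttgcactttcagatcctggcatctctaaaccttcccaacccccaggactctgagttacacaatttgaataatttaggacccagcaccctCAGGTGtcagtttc

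The machinery of mechanotransduction followed the outer hair cell markers in part. Of 9 tested genes of the transduction channel and the tip link, 5 passed toward Prestin and none toward Sox2, with a median of 0.87. The lowest member, the 1 below 0, lay at -0.53. Without Prestin control homogenate 1, and in the noise homogenates alone, 5 passed toward Prestin and 1 toward Sox2. Lhfpl5, a channel subunit bound to the tip link, stood at 25.7 to 98.0 TPM in the Prestin IPs and 3.61 to 10.1 TPM in the Sox2 IPs. It differed by 2.29 ± 0.32 (SE, limma adjusted p = 0.000192). Tomt, needed to bring the channel to the stereocilia, differed by 1.58, the pore protein Tmc1 by 1.37, Loxhd1 by 0.94 and the calcium-binding channel partner Cib2 by 0.87. The enrichment values of Lhfpl5, Tomt, Tmc1 and Loxhd1 did not overlap between the strains, as for 4.41% of all genes tested. In the Sox2 libraries Tmc1 stood at 0.247 to 1.22 TPM and Loxhd1 at 0.155 to 0.82 TPM. These levels are near or under the 1 added to each TPM. The changes of Tmc1 and Loxhd1 in the Sox2 strain are thus understated, and their differences and lack of overlap are uncertain. Tmie, another channel subunit, differed by 0.48 and did not pass (limma adjusted p = 0.134). The cadherins of the tip link, Cdh23 and Pcdh15, and Tmc2 were under the level needed for a test.

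Among 15 tested genes of the hair bundle scaffold, 6 passed toward Prestin and 1 toward Sox2, with a median of 0.21, close to that of all genes. The 6 were the actin cross-linker Fscn2 (1.48), Clrn1 (1.38), Grxcr2 (1.22), the actin bundler Espn (1.14), the motor Myo15 (0.83) and the scaffold protein Whrn (0.69). Espn was above input by 1.74 to 2.59 in every Prestin homogenate and by 0.59 to 1.40 in every Sox2 homogenate, where the median gene was above it by 0.84 and 0.68. Eps8, an actin-capping protein, differed by -0.43 (limma adjusted p = 0.0439), a call that was lost in 12 of the 16 fits that left out a homogenate. The call of Myo15 was lost with median-of-ratios scaling, with a pseudocount of 0.1 and in the noise homogenates alone.

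Of 9 tested transcription factors of hair cells, 7 passed toward Prestin and none toward Sox2, with a median of 0.55. With median-of-ratios scaling 4 passed. Insm1, which in development sets outer against inner hair cell fate, lay the other way at -1.44 and did not pass (limma adjusted p = 0.0967). It passed without Prestin control homogenate 2 (-1.77) and without Sox2 6 h homogenate 4 (-1.76). Pou4f3, required for hair cell survival, stood at 79.6 to 414 TPM in the Prestin IPs, with a median of 134 TPM, and at 25.4 to 62.4 TPM in the Sox2 IPs, with a median of 30.4 TPM. Its difference was 2.09 ± 0.37 (SE, limma adjusted p = 0.00134), and the enrichment values did not overlap. Lhx3 differed by 1.64, Gfi1 by 1.63 and Barhl1 by 1.61. The calls of Lhx3 and Gfi1 were lost with a pseudocount of 0.1 and in the noise homogenates alone. The call of Lhx3 was also lost without Sox2 control homogenate 1, and those of Lhx3 and Barhl1 without both Sox2 homogenates at 6 h. Isl1, which is also on the supporting cell list, differed by 0.55 and lost its call with median-of-ratios scaling. Of the 8 tested genes of inner hair cells and ribbon synapses, the calcium channel Cacna1d (0.70) and the transcription factor Tbx2 (0.67) passed toward Prestin. Otof, the calcium sensor of release at these synapses, differed by 0.27 (limma adjusted p = 0.355) and the ribbon gene Ctbp2 by 0.31 (limma adjusted p = 0.122).

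**Figure D2:**
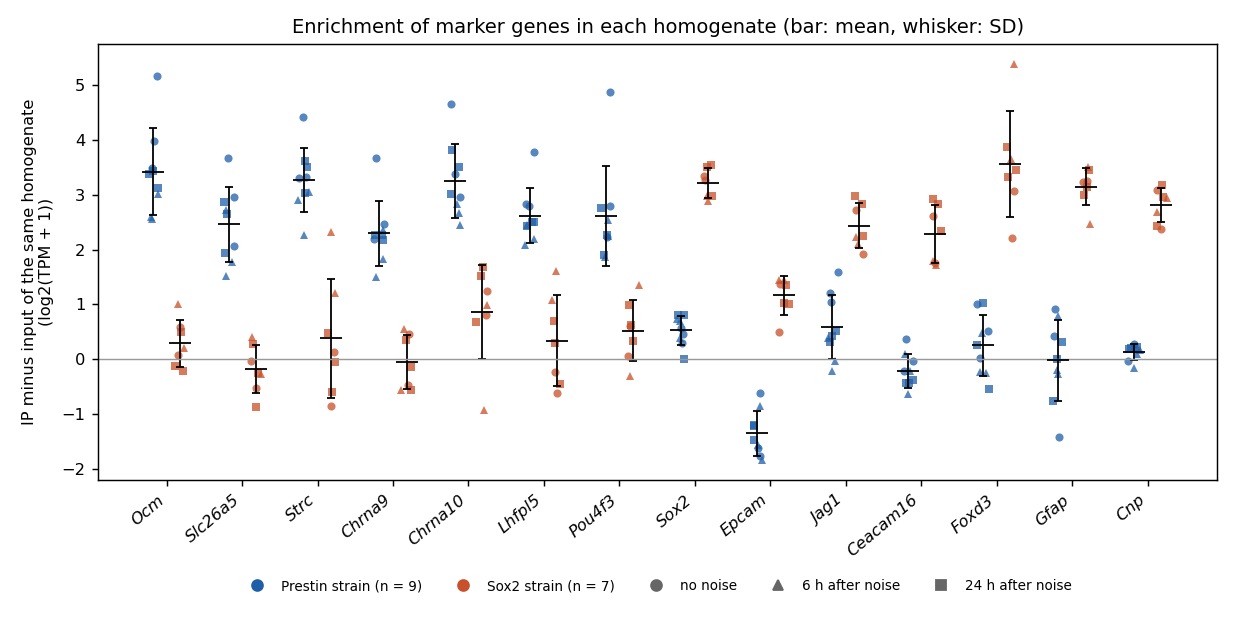
Enrichment, as IP minus input of the same homogenate in log2(TPM + 1), of 14 genes in the 9 Prestin (blue) and 7 Sox2 (orange) homogenates, with the mean (bar), the SD (whisker) and the condition (marker shape). The 7 hair cell genes on the left are higher in blue, with overlap for Strc alone, and the 7 genes on the right are higher in orange with no overlap.

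The Sox2 pull-down carried the reverse set. Of 22 supporting cell markers, 16 passed toward Sox2, where 8.41% of all genes did, and 1 toward Prestin, with a median difference of -0.85. The 1 toward Prestin was Isl1. Epcam, an adhesion protein of epithelia, stood at 97.0 to 366 TPM in the Sox2 IPs and at 22.4 to 66.6 TPM in the Prestin IPs, below its Prestin inputs of 75.1 to 137 TPM. It was therefore enriched in one pull-down (1.16 ± 0.35, SD, n = 7) and depleted in the other (-1.35 ± 0.41, SD, n = 9), and differed by -2.51 ± 0.20 (SE, limma adjusted p = 9.97e-07). Jag1, a Notch ligand of supporting cells, was at 20.0 to 42.6 TPM in the Sox2 IPs and 5.17 to 19.1 TPM in the Prestin IPs. Its difference was -1.85 ± 0.25 (SE, limma adjusted p = 0.000159). The transcription factor Sox21 differed by -1.85, the water channel Aqp4 by -1.63, Bace2 by -1.36 and the growth factor receptor Fgfr3 by -1.19. Fgfr3 was also above input in every Prestin homogenate, by 1.29 to 2.34, against 2.55 to 3.31 in the Sox2 strain.

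Genes of the Notch pathway were called on both sides. In Notch signalling a ligand on one cell activates a receptor on its neighbour, which switches on Hes and Hey repressors and in development keeps supporting cells from taking a hair cell fate. Of 19 genes of the pathway, 5 passed toward Sox2 and 3 toward Prestin, where 8.41% and 13.4% of all genes did. Their median was 0.02 and became -0.10 with median-of-ratios scaling, which left 1 call toward Prestin. Beside the ligand Jag1, the target genes Hey2 (-0.87), Hey1 (-0.83) and Heyl (-0.81) leaned to Sox2. The call of Hey2 was lost without Sox2 24 h homogenate 2 or 3 and without Sox2 6 h homogenate 2. The ligand Dll4 (0.81), known from blood vessels, and the glycosyltransferase Rfng (0.64) leaned to Prestin, and Rfng lost its call with median-of-ratios scaling. Of 14 genes of the FGF pathway, 2 passed toward Sox2 and 1, the receptor Fgfr4 (0.79), toward Prestin, a call lost without both Sox2 homogenates at 6 h. With 3 of 14 called, where 21.8% of all genes were, the FGF list was near the background. Of 9 cell cycle brakes none passed in either direction in limma, with 1 at an unadjusted p under 0.05.

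Genes of the tectorial membrane and otic matrix were split. Of 11 tested, 4 passed toward Sox2 and 2, both fibrillar collagens, toward Prestin, and the list median was -0.10. Ceacam16, a tectorial membrane protein, was at 1170 to 3930 TPM in the Sox2 IPs and at 268 to 523 TPM in the Prestin IPs. It differed by -2.49 ± 0.21 (SE, limma adjusted p = 1.75e-06). Otog differed by -2.18, Tectb by -1.47 and Otogl by -1.08, all components of the tectorial or otolithic matrix. These were the 4 called toward Sox2. Col2a1 (0.56) and Col11a1 (0.46) passed toward Prestin and lost their calls with median-of-ratios scaling. Of 7 genes of gap junctions and pannexins, Gjb1 (-1.78), which is also a gene of myelinating glia, and Gja1 (-0.86) passed toward Sox2. Gja1 lost its call in 7 of the 16 fits without a homogenate. Gjb6, the connexin 30 of supporting cells and the stria, differed by -0.36 (limma adjusted p = 0.0766).

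Glial genes moved with the supporting cell genes. Of 16 regulators and markers of Schwann cells and satellite glia, 11 passed toward Sox2, where 8.41% of all genes did. None passed toward Prestin, where 13.4% of all genes did, and the list median was -0.62. Beside Foxd3 these were led by Gfap (-3.17), an intermediate filament protein of glia, the lipid-binding protein Fabp7 (-2.93) and the Schwann cell signal Dhh (-2.21). The myelination factors Egr2 (-1.31) and Pou3f1 (-1.28) followed. Of 16 myelin genes, 12 passed toward Sox2 and none toward Prestin, with a median of -1.15. Cnp, an enzyme of myelinating cells, was at 315 to 743 TPM in the Sox2 IPs and 50.8 to 94.6 TPM in the Prestin IPs, and differed by -2.68 ± 0.13 (SE, limma adjusted p = 6.76e-09). Prx differed by -1.92, Mbp by -1.53 and Mag by -1.35. The summed level of the 16 Schwann and satellite glia genes overlapped that of the inputs in both strains. It was 2060 to 5540 TPM (median 2810) in the Sox2 IPs against 2070 to 6260 TPM (median 3220). In the Prestin IPs it was 1220 to 3230 TPM (median 1970) against 2260 to 4340 TPM (median 2800). A sum gives most weight to abundant genes. The median enrichment of this list was above input, by 1.28 in the Sox2 and 0.4 in the Prestin strain. The summed level of the 16 myelin genes was 3080 to 9410 TPM in the Sox2 IPs and 895 to 1370 TPM in their inputs, and 1600 to 2710 TPM against 765 to 1450 TPM in the Prestin strain. The summed level of the 22 supporting cell markers was 2140 to 2990 TPM in the Sox2 IPs and 1400 to 2040 TPM in the Prestin IPs. No member of the supporting cell, Schwann or myelin lists was at 0 throughout a group, and the part of glial RNA in the supporting cell differences was not tested. Of 16 neuronal genes 1, Sncg (-0.91), passed toward Sox2, a share near the 8.41% of all genes.

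**Figure D3:**
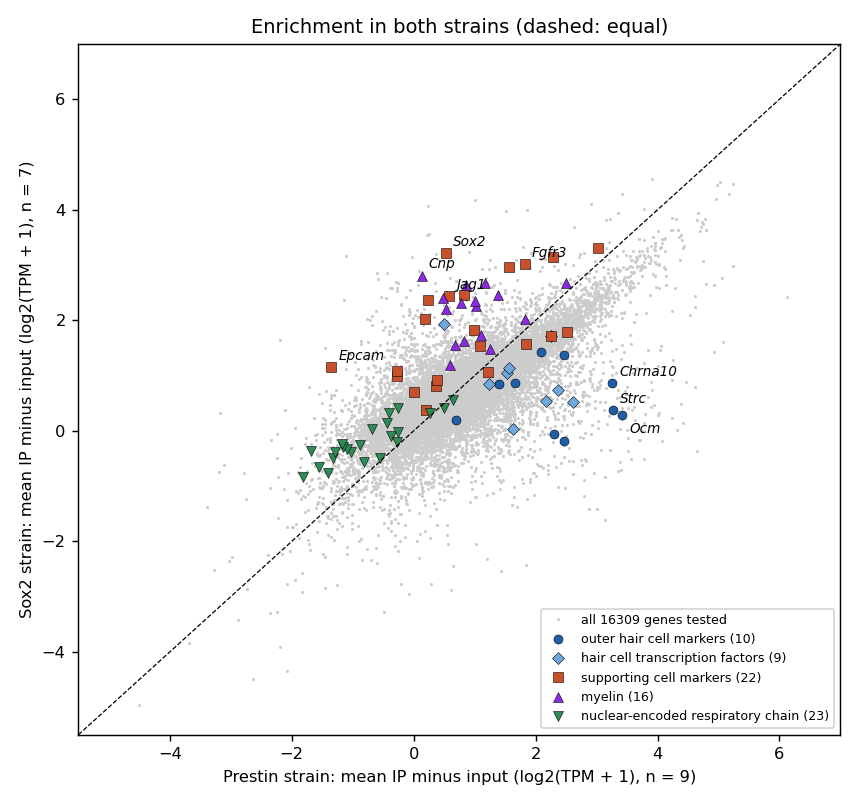
Mean enrichment of each of the 16309 genes tested in the Prestin strain (horizontal, n = 9) and in the Sox2 strain (vertical, n = 7), in log2(TPM + 1), with 5 gene lists in colour and the line of equal enrichment dashed. Outer hair cell markers lie right of the line and most supporting cell and myelin genes above it, and the cloud of all genes runs along it.

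Genes of blood vessels and of the stria were among those called toward Prestin, and none of bone, macrophages, neutrophils or red cells was called. Beside the counts below, 13.4% of all genes tested were called toward Prestin and 8.41% toward Sox2. Of 13 endothelial genes 7 passed toward Prestin and none toward Sox2, with a median of 0.46, and with median-of-ratios scaling 3 passed. The receptors Kdr and Eng differed by 0.83 and 0.69. The summed level of the 13 endothelial genes was 454 to 600 TPM in the Prestin IPs and 253 to 496 TPM in the Sox2 IPs, against inputs of 306 to 409 TPM and 292 to 427 TPM. Of 6 genes of pericytes and smooth muscle 4 passed toward Prestin, among them Pdgfrb (0.73) and Rgs5 (0.75), with a list median of 0.74, and 2 did with median-of-ratios scaling, Rgs5 not among them. The fibrocyte genes Tbx18 (0.70) and Tgfbi (0.62) passed toward Prestin, as 2 of 7. Of 7 genes of stria marginal and basal cells 4 passed toward Prestin, with a median of 0.40, and 1 with median-of-ratios scaling. The median enrichment of this list was below input in both strains, at -0.15 in the Prestin and -0.51 in the Sox2 strain. Esrrb differed by 0.52 with mean enrichments of 0.14 and -0.38. Among 7 melanocyte genes Mitf (0.47) and Slc45a2 (1.45) were among 3 toward Prestin, and Pmel (-1.35) was the 1 toward Sox2. The input of Slc45a2 differed between the strains by -2.73. Of 9 genes of fibroblasts and perineurial cells 3 passed toward Sox2, Igfbp6, Fbln2 (-2.09) and Lum (-1.83). Pdgfra (0.53) passed toward Prestin, as 1 of 9, a share near that of all genes. The lists with no call in limma held 12 tested genes of bone, 9 of macrophages, 7 of neutrophils and 6 of red cells. At an unadjusted p under 0.05 there was 1 gene of bone, 1 of macrophages and 0 of the other 2 lists.

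**Figure D4:**
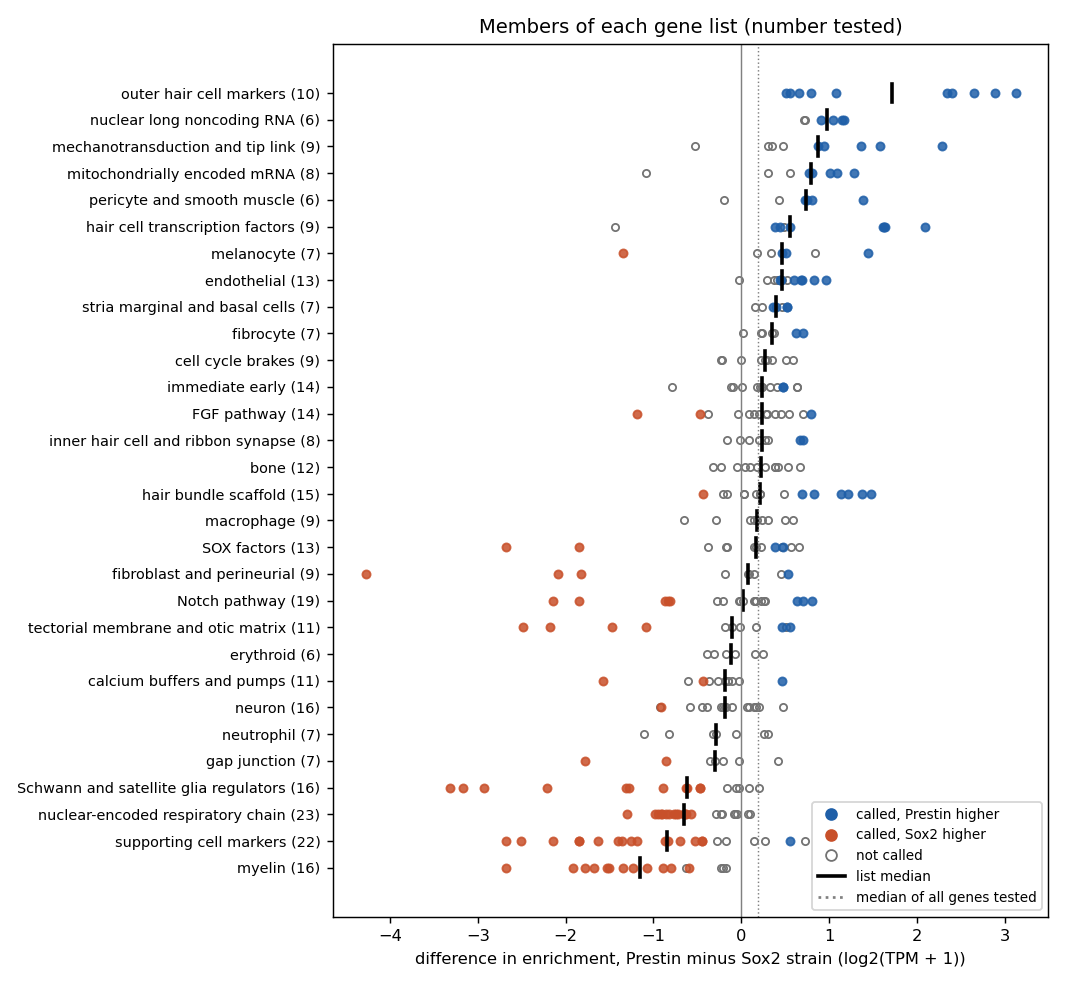
Difference in enrichment, Prestin minus Sox2 strain in log2(TPM + 1), of each tested member of the 30 gene lists, filled where called and open where not, with the list median (black bar) and the median of all genes, 0.19 (dotted). Outer hair cell markers have the highest median, 1.72, and myelin the lowest, -1.15.

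Beyond the lists of hair cells and supporting cells, the largest named difference was that of Igfbp6, which binds insulin-like growth factors. It was at 96.0 to 583 TPM in the Sox2 IPs and 13.2 to 33.6 TPM in the Prestin IPs, where it lay below its inputs, and differed by -4.28 ± 0.28 (SE, limma adjusted p = 1.51e-07). Bpifa1, a secreted protein of airway and middle ear epithelium, differed by -3.34, the glial factor Olig1 by -3.32, Plbd1 by -3.29 and Acsbg1 and Sostdc1 both by -2.98. Mlc1, a membrane protein of astrocytes, differed by -2.94, the neuropeptide Npy by -2.87 and Itih3 by -2.83. The levels behind some of these values varied widely. In the Sox2 IPs Olig1 ranged from 9.17 to 605 TPM, Mlc1 from 3.27 to 94.0, Npy from 1.74 to 39.4 and Itih3 from 2.79 to 133. Bpifa1 ranged from 189 to 12700 TPM in the Sox2 IPs and from 47.9 to 541 TPM in their inputs. In the Prestin inputs it lay between 31.7 and 308 TPM, highest in control homogenate 1. In the Sox2 inputs at 6 h Olig1 (0.232 and 0.445 TPM), Npy (0.0246 and 0.0567) and Itih3 (0.033 and 0.0507) lay under the 1 added to each TPM. Among genes with at least 5 TPM in the Prestin IP and no overlap, predicted genes, pseudogenes and small RNA genes left out, the largest differences toward Prestin outside the hair cell lists were those of Rpl17 (2.84), the RNA-binding protein Ybx2 (2.25), Ppia (2.24), Mapkapk5 (2.19), Gipc3 (2.18) and Cd164l2 (1.94). Gipc3 is a deafness gene of hair cells, with an enrichment of 0.72 to 3.15 in the Prestin strain and -2.19 to 0.55 in the Sox2 strain. The inputs of 3 of these genes differed between the strains, Ppia by -3.28, Mapkapk5 by 2.86 and Rpl17 by -1.50. Mapkapk5 stood at 8.10 to 10.1 TPM in Prestin inputs and at 0.157 to 0.705 TPM in Sox2 inputs. In the Sox2 IPs it stood at 0.0123 to 2.36 TPM, near or under the 1 added to each TPM. Its changes in the Sox2 strain are thus understated, and its difference and lack of overlap are uncertain. Rpl17 and Ppia have near-identical processed copies in the genome, so their values are uncertain where reads were split between copies. Over all genes, 2618 (16.1%) differed between the inputs, 1026 (6.29%) higher and 1592 (9.76%) lower in the Prestin strain. With median-of-ratios scaling that balance turned, to 1495 higher and 1004 lower. Between the IPs without subtraction of input 5298 (32.5%) differed, 3194 (19.6%) higher and 2104 (12.9%) lower.

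By their list median, nuclear genes of the respiratory chain were less depleted in the Sox2 pull-down than in the Prestin pull-down. Of 23 nuclear-encoded subunits of the respiratory chain, 14 passed toward Sox2 and none toward Prestin, with a median of -0.65. The median enrichment of the list was below input in both strains, at -0.81 in the Prestin and -0.25 in the Sox2 strain. Atp5b, a subunit of ATP synthase, was below input by 1.18 in the Prestin strain (mean -1.18 ± 0.27, SD, n = 9) and by 0.23 in the Sox2 strain (mean -0.23 ± 0.13, SD, n = 7), and differed by -0.95. Atp5a1 differed by -0.72, the succinate dehydrogenase subunit Sdha by -0.65 and Ndufs6 by -1.30, although the Ndufs6 inputs also differed, by 1.31. Sdha was above input in every Sox2 homogenate, by 0.14 to 0.53, and Atp5a1 lay between -0.1 and 0.17 there. Cytosolic ribosomes do not translate mitochondrially encoded mRNAs. The 8 tested had median enrichments below input in both strains, at -1.01 in the Prestin and -1.76 in the Sox2 strain. Of these 8, 5 passed toward Prestin, with mt-Nd4 at 1.29 and mt-Cytb at 1.01, and 2 passed with median-of-ratios scaling. In the other direction mt-Nd3 stood at -1.08 and did not pass (limma adjusted p = 0.268), but passed without Sox2 6 h homogenate 2 (-1.76) and without both Sox2 homogenates at 6 h (-1.69). Mitochondrial genes held 4.91% to 13.7% of the TPM of Prestin IPs and 3.07% to 8.83% of that of Sox2 IPs, against 20.47% to 28.57% in the inputs. Of the 13 mitochondrially encoded mRNAs on the list, mt-Co2, mt-Co3 and mt-Atp6 were at 0 in every Sox2 library, and mt-Co2 reached 13.62 TPM in the Prestin strain. The mRNAs mt-Nd4l and mt-Atp8 were at 0 in every library of both strains. Such zeros may be failed estimates, so the mitochondrial calls and shares are uncertain. Malat1, which stays in the nucleus, differed by 1.15 ± 0.36 (SE, limma adjusted p = 0.0316), with 12251 to 73023 TPM in Prestin IPs and 8533 to 18789 TPM in Sox2 IPs. Its call was lost with median-of-ratios scaling and in 5 of the 16 fits without a homogenate. The part of mitochondrial and nuclear RNA in the other differences was not tested. Among 11 calcium buffers and pumps, S100a1 (-1.58) and Calm3 (-0.44) passed toward Sox2 and the penta-EF-hand protein Sri (0.46) toward Prestin, 3 of 11 where 21.8% of all genes passed. The call of Calm3 was lost in 11 of the 16 fits without a homogenate, and that of Sri with median-of-ratios scaling. Of 14 immediate early genes 2 passed toward Prestin, Junb and Klf4 (0.48 each), a share near the 13.4% of all genes, and they lost that call in 11 and 13 of those fits. Rpl22, the tagged gene, differed by -0.44 ± 0.15 (SE, limma adjusted p = 0.0415), its inputs by 0.43, and its call was lost in 10 of those fits.

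The strain difference was then read within each condition. The fit of the 6 groups used an estimate of the spread that all groups share, and not the spread within a condition. In it, 1561 genes (9.57%) were called toward Prestin and 664 (4.07%) toward Sox2 without noise. At 6 h the counts were 309 (1.89%) and 397 (2.43%), and at 24 h they were 95 (0.583%) and 264 (1.62%). With median-of-ratios scaling the counts were 514 and 996 without noise, 250 and 519 at 6 h, and 53 and 315 at 24 h, so without noise the balance of the sides turned. The counts also depended on single homogenates. Leaving out 1 at a time gave totals of 892 (without Sox2 control homogenate 1) to 2892 (without Sox2 6 h homogenate 2) without noise. The totals at 6 h were 152 (without Prestin 6 h homogenate 2) to 1627 (without Sox2 6 h homogenate 2), and those at 24 h were 86 (without Prestin 24 h homogenate 1) to 1521 (without Prestin control homogenate 1, 970 toward Prestin and 551 toward Sox2). The median difference of the 10 outer hair cell markers was 2.28 without noise, 0.82 at 6 h and 1.56 at 24 h, and that of the 22 supporting cell markers was -1.12, -0.78 and -0.91. The myelin list stood at -1.08, -1.32 and -0.98. The median of all genes was 0.28, 0.11 and 0.12. Ocm differed by 3.88, 2.12 and 3.25, and Sox2 by -2.86, -2.32 and -2.80, in the same order.

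The control and noise homogenates share no library, so each can be read in the other. The 11 noise homogenates alone called 3400 genes (20.8%), 2098 (12.9%) toward Prestin and 1302 (7.98%) toward Sox2. Of the 2098 genes, 1843 (87.8%) had the same direction in the 5 controls, where 65.7% of all genes had it. Of the 1302 genes, 1076 (82.6%) had the same direction, against 34.2% of all genes. The fit of the 5 controls alone called 1 gene (0.00613%), toward Prestin, and none (0.0%) toward Sox2 after adjustment in limma, with 3156 genes at an unadjusted p under 0.05.

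A dependence of the strain difference on condition was called for 14 genes (0.0858%) by the interaction test. Clic3, a chloride intracellular channel protein, had the smallest p (limma adjusted p = 0.00809). It differed by 3.92 ± 0.42 (SE) without noise, by -2.20 ± 0.42 at 6 h and by 0.41 ± 0.37 at 24 h. In the Sox2 strain its enrichment was -3.69 and -4.26 without noise, where its IPs stood at 0.719 TPM and 0, and 1.10 and 1.54 at 6 h. In the Prestin strain it stayed between -1.82 and 0.34. Tpt1, a gene active in most cells, differed by 0.20 ± 0.30 (SE) without noise and by -3.05 ± 0.30 at 6 h, with an adjusted interaction p of 0.022 in limma. The inputs of Tpt1, a gene with processed copies, differed between the strains by 2.14. The neuronal genes Rtn1 (adjusted p = 0.022), Tceal6 (0.0388) and Bex2 (0.0466) leaned to Sox2 without noise, by -1.68, -2.35 and -2.38, and stood at -0.01, 1.14 and 0.23 at 6 h. All 5 rested on groups of 2 Sox2 homogenates. Without Sox2 6 h homogenate 2 the interaction called 432 genes, and without any of the Prestin homogenates at 24 h, left out singly, it called 4.

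**Figure D5:**
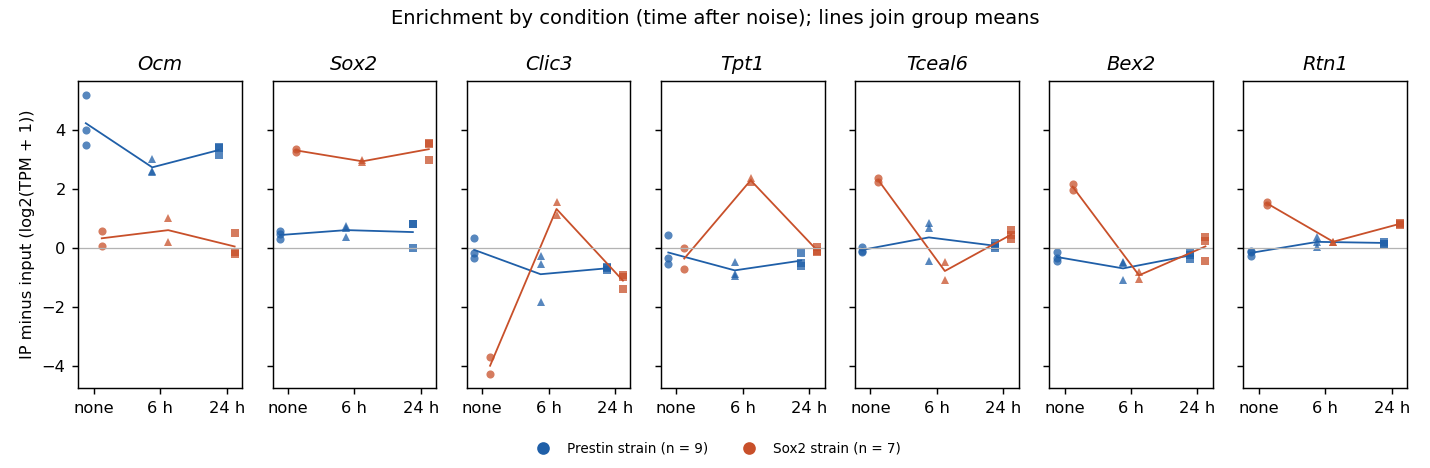
Enrichment (IP minus input, log2(TPM + 1)) without noise and at 6 h and 24 h in the Prestin (blue) and Sox2 (orange) strain for Ocm, Sox2 and the 5 genes with the smallest interaction p, with lines through group means. The strains stay apart for Ocm and Sox2, and the orange Clic3 values run from -3.69 and -4.26 without noise to 1.10 and 1.54 at 6 h.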

How the data were processed

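The authors deposited TPM values per gene and library, which keep no read depth. The submitters' processing notes name TopHat and GRCm38. For the annotation, the tool behind the TPM values, strand and versions, the answer is not given in the sources used here. Libraries were made with a directional NEBNext kit and the IP and input of a homogenate are aliquots of it, per the labels' protocols.

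Each IP was taken minus its own input as log2(TPM + 1), which understates changes of low genes, and strains were compared with limma 3.58.1 in R 4.3.3 (trended eBayes, Benjamini-Hochberg). Where a fit left out a homogenate so that a group held 1, that homogenate was assumed to vary like the other groups. IP and input deviations from their group means correlated across genes in all 16 homogenates (r = 0.04 to 0.31), and no pair of replicate libraries held identical values (r = 0.842 to 0.974). The pairing was kept as the block.

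The members, the 30 gene lists and the rule for named genes were chosen with earlier results of these data known. The rule took the 12 largest called differences per direction with at least 5 TPM in the IP of the higher strain and no overlap, leaving out predicted genes, pseudogenes and small RNA genes. It added up to 6 members of each list by p, up to 2 called members against the list median, 6 marker and check genes, and 5 genes by interaction p. Not all are named, and Lbh, Ikzf2 and Atp2b2 are named outside it as other members of the outer hair cell list. Insm1 and mt-Nd3, which went against their lists, were named after their values were seen. Some genes are not reported here. The fit was tested on simulated data. Positions come from GENCODE M21. Tables and figures were made with python 3.11.15, pandas 2.3.3, numpy 2.4.6 and matplotlib 3.10.9. Alternatives were the scaling, pseudocount, filter, block, covariate, trend and each homogenate left out. The fit without both Sox2 homogenates at 6 h, and list counts under other settings, were added after seeing the data.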

Additional observations from a re-analysis of the deposited data

Results flagged for a closer look

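The 112 named genes were screened in the 9 Prestin and in the 7 Sox2 enrichment values with Dixon's criterion for a sample far from the others, which flags about 1 group in 20 by chance. Of 224 groups 20 held such a value, and 11 of these were in Prestin control homogenate 1. In that homogenate Chrna9 (3.67), Lhfpl5 (3.78), Fscn2 (3.49), Pou4f3 (4.87), Cacna1d (1.96) and Gipc3 (3.15) lay above the other 8 Prestin values, as did Gjb6 (0.77). Hey2 (1.11), Rfng (1.41), Sncg (-1.19) and Klf4 (0.66) lay below them. Without it all 102 called genes among those named kept their call. In the Sox2 strain the far values were Chrna10 (-0.92) and mt-Nd3 (-5.14) in 6 h homogenate 2, Ikzf2 in 6 h homogenate 4 (0.89), Gjb6 in control homogenate 4 (0.07), Esrrb (-0.91) and Junb (2.09) in control homogenate 1, and Bpifa1 in 24 h homogenate 3 (4.79). At 6 h in the Prestin strain they were Clic3 in homogenate 2 (-1.82) and Bex2 in homogenate 1 (-1.08).

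Enrichment differed between the strains for 3555 genes. The strain difference itself differed between conditions for 14 genes by the interaction test of limma, among them Clic3 (adjusted p = 0.00809), Rtn1 (0.022), Tpt1 (0.022), Tceal6 (0.0388) and Bex2 (0.0466).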

How the results depend on the processing

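Without the replicate block, IPs were not paired with their inputs, and the 12 groups of strain, condition and fraction were fitted. That fit called 2736 genes toward Prestin and 1500 toward Sox2 (4236 in all). Of the 102 called genes named, 96 kept their call, all but Atp2b2, Eps8, Gja1, Tgfbi, Sncg and Junb. It also took condition into account and weighted the conditions equally, so the part of pairing alone was not tested. No named gene called in the main comparison changed direction under any alternative. Of the 102, the fits without 1 homogenate kept 93 throughout, median-of-ratios scaling kept 91, a pseudocount of 0.1 kept 98, and the noise homogenates alone kept 89. The control homogenates alone kept 0. The noise homogenates alone lost Grxcr2, Myo15, Eps8, Lhx3, Gfi1, Col2a1, Gja1, Hey1, Dll4, Calm3, Tgfbi, Eng and Rtn1. The calls lost when single homogenates were left out were those of Calm3, Eps8, Gja1, Hey2, Junb, Klf4, Lhx3, Malat1 and Rpl22. Rescaling without mitochondrial genes and Malat1 gave 3338 and 1102 calls. Leaving out 1 homogenate gave 2739 to 4790 calls of the strain difference, 892 to 2892 without noise, 152 to 1627 at 6 h, 86 to 1521 at 24 h and 4 to 432 of the interaction. The control homogenates alone called 1 gene, fewer samples than the 3555 calls rested on, and a pseudocount of 0.1 gave 32 calls of the interaction, for which the cause was not tested. Depth is unknown, so no limit of detection can be given.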
